A study of Homo sapiens with 22 samples.

Results

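Pyruvate dehydrogenase kinases and phosphatases set how much pyruvate enters the citric acid cycle. The pyruvate dehydrogenase complex (PDC) turns pyruvate into acetyl-CoA in mitochondria. Kinases (PDK1 to PDK4) phosphorylate its E1 alpha subunit and switch it off, and phosphatases (PDP1 and PDP2) remove the phosphate and switch it on again. PDK4 is known as the isoenzyme that rises in fasting and under glucocorticoids, when tissues spare glucose. The 6 genes were chosen by name, 4 kinases and 2 phosphatases, out of 20668 gene symbols listed for each sample.

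RNA was sequenced from MDA-MB-231, an established triple-negative breast cancer (TNBC) cell line, to ask which genes the glucocorticoid receptor (GR) regulates under different ligands. All cells had been kept in phenol red-free medium with charcoal-stripped serum. They then received vehicle, 100 nM dexamethasone (Dex, a synthetic glucocorticoid) for 2 h or 4 h, or 10 μM Compound A (CpdA, a selective GR modulator) for 2 h or 4 h, with 2 samples in each of the 5 groups. The labels give vehicle no time, but the names of the deposited vehicle tables carry 2 h for replicate 1 and 4 h for replicate 2. Every treatment was compared with the pair of vehicle samples, so the 4 comparisons with vehicle share their controls. The data come from 1 cell line. The study calls the duplicates biological, and whether they were separate cultures or days is not given in the sources used here, so p-values measure the spread between these samples only.

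Values are RPKM, the reads on a gene per kilobase of transcript, scaled to the mapped reads of the sample, a scale on which genes can be set side by side. The worth of a single read in RPKM gave 51.3 M (vehicle replicate 1) to 62.1 M (Dex 2 h replicate 2) (megareads) of mapped reads per sample, with both vehicle samples the shallowest. The markers of this cell line were high in all samples, with VIM at 1267 to 1464 RPKM and AXL at 212 to 264 RPKM. ESR1 and PGR, the hormone receptors absent from triple-negative cells, were at most 0.00484 and 0.00253 RPKM. Among the markers of the luminal type listed as low or absent, ERBB2 (15.9 to 21.6 RPKM) and GATA3 (3.75 to 6.598 RPKM) were present. The summed level of the leukocyte, T cell and endothelial markers PTPRC, CD3E and PECAM1 was at most 0.379 RPKM. In these bulk samples, fewer cells expressing a gene and less RNA per cell cannot be told apart.

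PDK4 lies on chromosome 7 of GRCh37 (95212811 to 95225828, minus strand) and carried the largest response of the family, so the sequence around its start is shown. The 300 bases run from 250 bases before the RefSeq transcript start to 50 bases after it, taken from the RefSeq promoter table of GRCh38.p14. They match GRCh37 exactly once, at chr7:95225779-95226078 on the minus strand. Capitals mark a GR half-site (TGTTCT, the reverse complement of AGAACA) starting 246 bases before the start and a CCAAT box on the reverse strand (ATTGG) starting 117 bases before it.
PDK4 promoter: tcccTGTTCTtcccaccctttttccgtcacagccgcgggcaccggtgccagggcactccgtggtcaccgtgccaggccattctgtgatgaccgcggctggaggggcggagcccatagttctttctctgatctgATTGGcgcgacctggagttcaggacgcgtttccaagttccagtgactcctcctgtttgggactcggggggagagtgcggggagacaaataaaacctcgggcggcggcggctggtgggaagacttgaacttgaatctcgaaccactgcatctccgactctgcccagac

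Searched on both strands, the half-site occurred in 14.8% of 35116 promoters of this length and the CCAAT box in 34.6%. PDK4 alone among the members with a searched promoter (PDK1, PDK2, PDK3, PDK4 and PDP2) held the half-site. Every one of these members held a CCAAT box. The FOXO motif GTAAACA, found in 3.42% of promoters, was in none of theirs. Within 10000 bases on either side of each member's start, the full GR palindrome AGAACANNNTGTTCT was found at no member, against 0.423% of 11573 genes. The looser core GNACANNNTGTNC was found at 22.4% of genes. Among the members it occurred once, in PDK2, with the 13 letters that match it in capitals (the bases shown are chr17:48176634-48176666, plus strand).
PDK2 core match: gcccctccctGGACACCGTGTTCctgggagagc

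The middle base of the PDK2 match lay 4549 bases downstream of the start, inside the gene (chromosome 17, 48172101 to 48189516, plus strand). A match is a string of letters and not a binding site, and a window without one says nothing about binding by GR.

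The other members are PDK1 (chromosome 2, 173420101 to 173473397, plus strand), PDK3 (chromosome X, 24483361 to 24568583, plus strand), PDP2 (chromosome 16, 66912492 to 66929657, plus strand) and PDP1 on chromosome 8. Annotated transcripts on the opposite strand overlap several of them, among them PDK4-AS1, PDK1-AS1 and, at PDK2, the protein-coding SAMD14. Strand-specific counting was not stated, so reads from such partners cannot be told apart from those of the members.

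In vehicle, PDP1 was the most abundant of the 6 transcripts and PDK4 the least. The mean RPKM was 46.6 ± 8.92 for PDP1, 9.21 ± 0.734 for PDK2, 5.84 ± 0.912 for PDK1, 3.48 ± 0.193 for PDP2, 1.38 ± 0.247 for PDK3 and 0.149 ± 0.0125 for PDK4 (SD, n = 2 each). No 2 neighbours in that order overlapped between samples, and CpdA kept the order at both times. With Dex, PDK4 moved from the last place to the first at both times, ahead of PDP1, and the other members kept their order. Among the 20668 symbols, the mean level of PDK4 rose from percentile 32.4 in vehicle to percentile 95.9 at Dex 2 h.

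**Figure D1:**
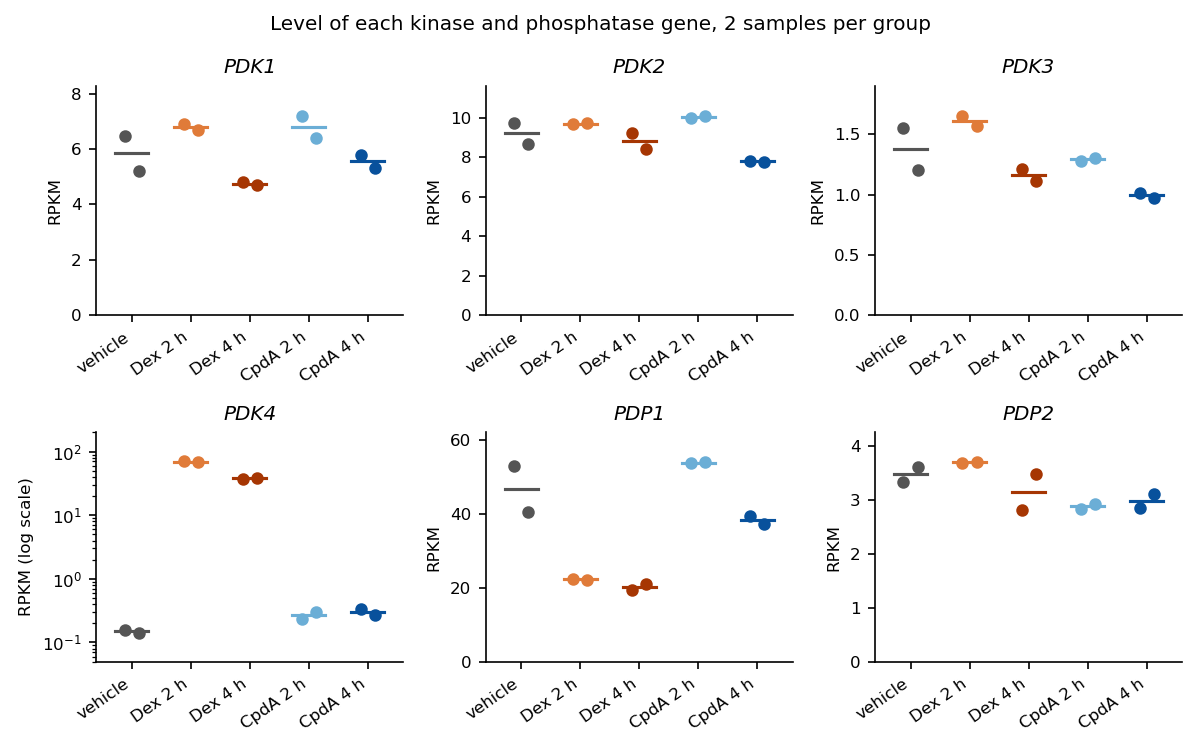
RPKM of each gene in every sample by group, with points for samples and lines for group means, on a log axis for PDK4 and linear axes from 0 for the others. PDK4 sits between 37.5 and 70.4 RPKM in the 4 Dex samples and at most 0.333 elsewhere, and PDP1 is lowest in the 4 Dex samples.

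Dex raised PDK4 and lowered PDP1 at both times. At 2 h these were the members called at an adjusted p-value under 0.05 (2 of 6), where 10.3% of the 12713 genes tested were called. At 4 h the same pair was called, against a background of 27.4%. Both members also passed a fold change of 2 at each time, which 2.01% of genes did at 2 h and 3.78% at 4 h.

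PDK4 stood at 0.158 and 0.140 RPKM in the vehicle samples. Dex samples held 70.4 and 69.4 RPKM after 2 h and 37.5 and 39.1 RPKM after 4 h. The Dex and vehicle samples were separated by more than 2 orders of magnitude, and duplicates lay close together. On the log2(RPKM + 0.1) scale, the change was 8.13 ± 0.11 (SE, limma adjusted p = 1.1e-09) at 2 h and 7.27 ± 0.11 (adjusted p = 1.3e-09) at 4 h. The ratio of mean RPKM, with no pseudocount, was 468 at 2 h and 256 at 4 h. PDK4 passed the filter on low values only through its Dex samples, so it had to differ between groups to be tested.

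The reads behind these values could be recovered for PDK4, because its RPKM values are whole multiples of 1 read (to within 0.0162 reads). Vehicle replicates held 30 and 27 PDK4 reads, Dex 2 h replicates 15172 and 15941, and Dex 4 h replicates 7512 and 8134. The vehicle level thus rested on 57 reads over both samples (95% Poisson interval 43.2 to 73.9, counting error only). PDK4 was read in both vehicle samples, at a low level, without any ligand.

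PDP1, the calcium-stimulated phosphatase, moved in the opposite direction. Vehicle samples held 52.9 and 40.3 RPKM, Dex samples 22.4 and 22.2 RPKM after 2 h and 19.3 and 20.9 RPKM after 4 h. All 4 Dex samples lay below both vehicle samples, although the vehicle samples differed from each other by more than the duplicates of any other group. The log2 change was -1.05 ± 0.10 (limma adjusted p = 1.6e-04) at 2 h and -1.20 ± 0.10 (adjusted p = 3.3e-05) at 4 h. Mean PDP1 was thus 2.09 and 2.32 times higher in vehicle. Both calls held under all 20 alternatives computed for each, with log2 changes from -1.24 to -0.85 at 2 h and from -1.39 to -1.002 at 4 h.

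The remaining members did not pass the test against vehicle with Dex. PDK1, the kinase known as a target of the hypoxia factor HIF-1, was 6.92 and 6.70 RPKM after 2 h and 4.81 and 4.70 RPKM after 4 h, around vehicle values of 6.49 and 5.20. Its log2 change was 0.23 (limma adjusted p = 0.24) at 2 h and -0.28 (adjusted p = 0.071) at 4 h. PDK2, the most broadly expressed kinase, changed by 0.08 (95% interval -0.07 to 0.22) and -0.06 (-0.21 to 0.09). Its samples overlapped those of vehicle at both times. PDK3 changed by 0.22 (-0.06 to 0.51) at 2 h and -0.22 (-0.50 to 0.06) at 4 h. PDP2, the second phosphatase, changed by 0.09 (-0.14 to 0.31) and -0.15 (-0.37 to 0.08).

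CpdA gave a PDK4 response on a far smaller scale and PDP1 did not pass the test. At 2 h PDK4 alone was called (1 of 6 members, background 6.18%), and at 4 h PDK4 rose while PDK2 and PDK3 fell (3 of 6, background 20.5%). None of these changes exceeded a fold change of 2 on the log2(RPKM + 0.1) scale, which 0.488% of genes did at 2 h and 0.889% at 4 h.

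With CpdA, PDK4 reached 0.231 and 0.303 RPKM after 2 h, and 0.333 and 0.268 RPKM after 4 h. All 4 samples lay above both vehicle samples and far below all Dex samples. The log2 change was 0.55 ± 0.11 (limma adjusted p = 0.023) at 2 h and 0.68 ± 0.11 (adjusted p = 0.0031) at 4 h. The SE is that of the Dex changes, because all 5 groups share 1 fit, and Dex samples held far more PDK4 reads. It therefore does not measure the spread of the vehicle and CpdA samples alone. As mean RPKM without a pseudocount, the ratio to vehicle was 1.79 at 2 h and 2.01 at 4 h. The 2 h call held in 11 of the 19 alternatives computed. It was lost with a pseudocount of 1 (adjusted p = 0.18), without the filter on low values (0.070) and without vehicle replicate 2 (0.12). It was also lost without CpdA 2 h replicate 2 (0.16), without Dex 2 h replicate 1 (0.058) and without Dex 2 h replicate 2 (0.058). Unmoderated variances (0.095) and a fit of only the 4 samples compared (0.27) lost it as well. The 4 h call held in 18 of the 19 alternatives computed and was lost only when the 4 samples of the comparison were fitted alone (adjusted p = 0.097).

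The CpdA samples held 52 and 65 PDK4 reads after 2 h, and 73 and 59 after 4 h. The group totals were 117 (95% Poisson interval 96.8 to 140) and 132 (110 to 157), against 57 (43.2 to 73.9) in vehicle. The intervals of both CpdA groups lay above that of vehicle, while the depth of the CpdA samples was 1.13 to 1.18 times that of vehicle replicate 1. Such intervals hold counting error only and not the spread between samples.

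PDK2 at CpdA 4 h was 7.82 and 7.79 RPKM, below the vehicle values of 9.73 and 8.69. The log2 change was -0.23 ± 0.06 (limma adjusted p = 0.033). PDK3, the least abundant kinase after PDK4, was 1.02 and 0.976 RPKM against 1.55 and 1.20 in vehicle, a log2 change of -0.42 ± 0.13 (adjusted p = 0.044). Neither call held when samples were rescaled to a common median (PDK2 -0.17, adjusted p = 0.12, and PDK3 -0.36, adjusted p = 0.075). Without vehicle replicate 1 the changes were -0.15 (adjusted p = 0.16) and -0.25 (adjusted p = 0.21), and leaving out either replicate of Dex 2 h, CpdA 2 h or CpdA 4 h also lost both calls.

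PDP1 under CpdA was 53.6 and 53.9 RPKM at 2 h and 39.4 and 37.2 RPKM at 4 h. The 2 h values were close to vehicle replicate 1 (52.9) and the 4 h values to vehicle replicate 2 (40.3). Against both vehicle samples the log2 change was 0.22 (limma adjusted p = 0.29) at 2 h and -0.27 (adjusted p = 0.10) at 4 h. Without vehicle replicate 1 the 2 h change became 0.41 (adjusted p = 0.0067), and without vehicle replicate 2 the 4 h change became -0.47 (adjusted p = 0.0023). A call for PDP1 under CpdA therefore depended on which vehicle sample was used. PDK1 and PDP2 were not called at either time under CpdA.

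**Figure D2:**
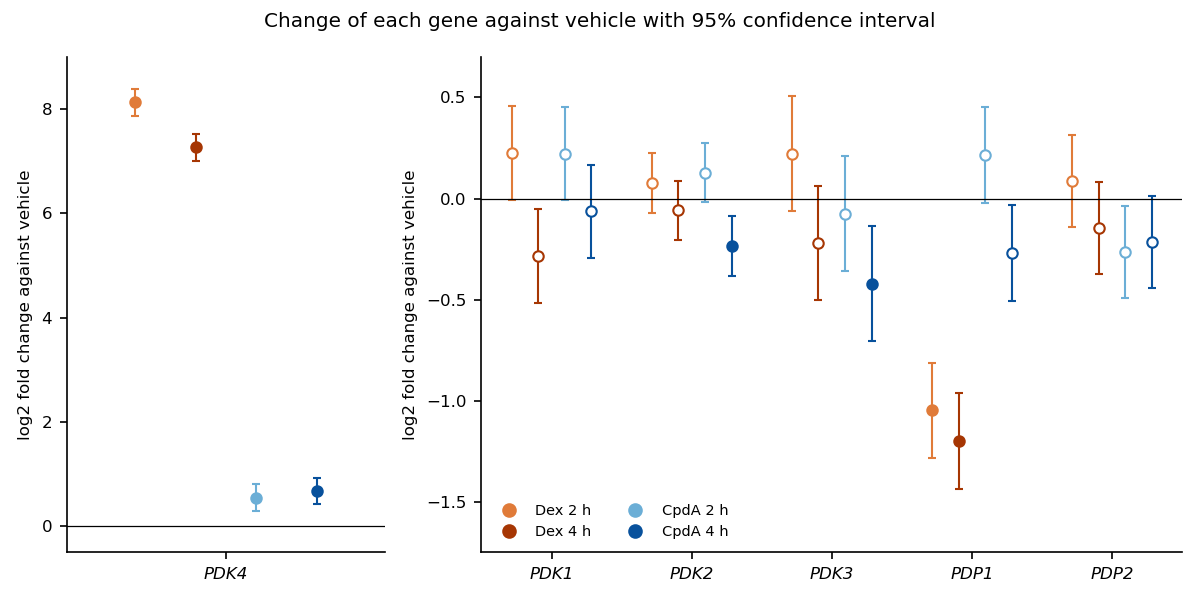
Log2 fold change of each gene against vehicle on the log2(RPKM + 0.1) scale, with 95% confidence intervals from limma, filled where the adjusted p-value was under 0.05. PDK4 is on its own axis, with Dex changes of 8.13 and 7.27 against 0.55 and 0.68 for CpdA, and PDP1 is the one other gene whose Dex changes were called.

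The vehicle samples differed from each other in 4 of the members in the way the time points of the treatments did. The level in vehicle replicate 2 over that in replicate 1 was 0.801 for PDK1, 0.893 for PDK2, 0.775 for PDK3 and 0.762 for PDP1. The ratio of 4 h to 2 h was 0.698, 0.910, 0.721 and 0.902 for the same genes with Dex, and 0.817, 0.776, 0.771 and 0.714 with CpdA. Every one of these ratios lay below 1. PDP2 did not share this direction in vehicle (1.08). PDK4 fell in Dex (0.548). Its ratio in vehicle was 0.888, on 30 and 27 reads with overlapping Poisson intervals (20.2 to 42.8 and 17.8 to 39.3). In CpdA the PDK4 ratio was 1.12, and the samples of the 2 times overlapped.

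Each treatment was also set against the single vehicle sample whose table carries the same time. PDK4 and PDP1 under Dex kept their direction, at 8.08 and -1.24 at 2 h and 7.32 and -1.002 at 4 h. Each fit here holds 1 vehicle sample, so limma p-values from it take their spread from the other groups and hold none for vehicle. For PDP1 under CpdA the change became 0.02 (adjusted p = 0.97) at 2 h and -0.07 (adjusted p = 0.48) at 4 h. For PDK1 the change was 0.07, -0.13, 0.06 and 0.09 at Dex 2 h, Dex 4 h, CpdA 2 h and CpdA 4 h, with no call. PDK2 and PDK3 at CpdA 4 h were not called (adjusted p = 0.16 and 0.21), and PDK4 under CpdA stayed called at 4 h (0.73, adjusted p = 0.011) but not at 2 h (0.50, adjusted p = 0.12). Time and replicate cannot be told apart in the vehicle samples.

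Between the time points of Dex, 3 of the 4 kinases fell and neither phosphatase passed the test. PDK4 (-0.87 ± 0.11, limma adjusted p = 0.0015), PDK1 (-0.51 ± 0.10, adjusted p = 0.013) and PDK3 (-0.44 ± 0.13, adjusted p = 0.049) were lower at 4 h than at 2 h, 3 of 6 members against a background of 13.6%. The PDK4 level at 4 h was 0.548 of that at 2 h and still above every sample without Dex. The PDK3 call held in 5 of the 19 alternatives computed. Among others, it was lost under both rescalings and when either Dex 2 h or Dex 4 h sample was left out. The PDK1 call was lost without Dex 2 h replicate 1 (adjusted p = 0.091) or replicate 2 (0.064). PDK2 fell short of the threshold at -0.14 (adjusted p = 0.20).

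Between the time points of CpdA, PDK2 (-0.36 ± 0.06, limma adjusted p = 0.0094) and PDP1 (-0.49 ± 0.10, adjusted p = 0.019) were lower at 4 h, 2 of 6 members against a background of 12.4%. PDK4 did not pass the test (0.13, 95% interval -0.13 to 0.38). Leaving out any 1 CpdA sample lost both calls.

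Set directly against each other, the ligands differed in PDK4 and PDP1 at both times, though their doses differed (100 nM and 10 μM). PDK4 was higher with Dex by 7.58 at 2 h (limma adjusted p = 2.5e-09) and 6.59 at 4 h (adjusted p = 2.4e-09). PDP1 was lower with Dex by -1.27 (adjusted p = 3.9e-05) and -0.93 (adjusted p = 1.4e-04). These were 2 of 6 members at each time, against backgrounds of 13.7% at 2 h and 33.4% at 4 h. PDP2 was higher with Dex at 2 h by 0.35, with an adjusted p of 0.0503 that lay within the threshold in 9 of its alternatives. At 4 h PDP2 differed by 0.07 (95% interval -0.16 to 0.30).

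The ligand difference itself changed with time for PDK4, by -0.99 ± 0.16 from 2 h to 4 h (limma interaction, adjusted p = 0.0080). It was the 1 member of 6 called, against a background of 6.6%. The adjusted p was 0.051 without Dex 2 h replicate 1. PDP1 (0.34, adjusted p = 0.24) and PDK2 (0.23, adjusted p = 0.21) did not pass this test.

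The mix of kinase transcripts turned over with Dex. The summed RPKM of the 4 kinases was 16.6 ± 1.90 in vehicle (SD, n = 2 in this and the other groups). It was 88.0 ± 0.892 after 2 h of Dex and 53.0 ± 0.470 after 4 h, and 18.4 ± 0.427 after 2 h of CpdA and 14.7 ± 0.438 after 4 h. PDK4 made up 0.902% of that sum in vehicle, 79.4% after 2 h of Dex and 72.2% after 4 h. With CpdA its share was 1.45% at 2 h and 2.04% at 4 h. Without PDK4 the sum of the other kinases was 18.1 after 2 h of Dex and 14.8 after 4 h, beside 16.4 in vehicle.

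Summed kinase RPKM over summed phosphatase RPKM was 0.319 and 0.347 in the vehicle samples. With Dex it was 3.39 and 3.38 at 2 h and 2.39 and 2.19 at 4 h. With CpdA it was 0.332 and 0.319 at 2 h and 0.354 and 0.355 at 4 h. On the RPKM scale, Dex samples thus held more kinase than phosphatase transcript, and vehicle and CpdA samples the reverse. With PDK4 left out, the mean ratio was 0.698 after 2 h of Dex and 0.637 after 4 h, against 0.330 in vehicle. The summed phosphatase RPKM was 50.1 ± 8.72 in vehicle and 26.0 ± 0.178 after 2 h of Dex (SD, n = 2 each). PDP1 made up 92.9% of the phosphatase sum in vehicle and 85.8% at Dex 2 h. These are transcript levels, and neither protein nor PDC activity was measured in the files used here.

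**Figure D3:**
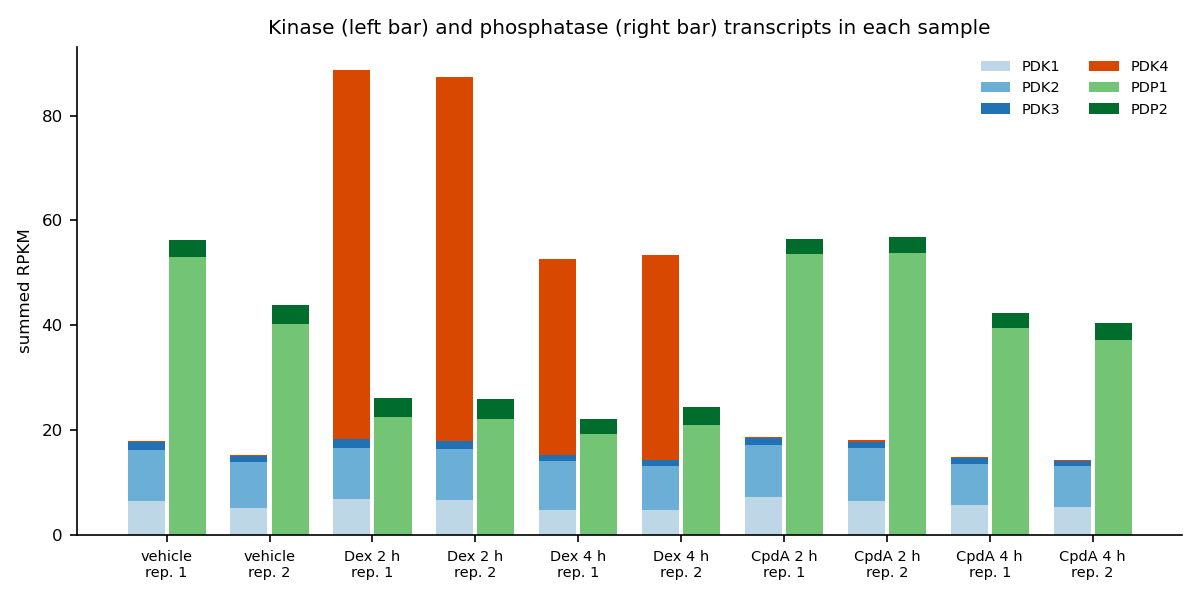
Summed RPKM per sample, with the kinases stacked in the left bar and the phosphatases in the right bar of each pair. The kinase bar exceeds the phosphatase bar in the 4 Dex samples only, through PDK4.

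The genes whose profile over the 10 samples was most like that of PDK4 were ZNF57 (Pearson r = 0.998), TSC22D3 (0.995), KLF9 (0.995), SLC19A2 (0.995) and CEBPB (0.995), a description over samples that share their groups. TSC22D3 encodes GILZ, a glucocorticoid-induced leucine zipper protein, and rose from a mean of 9.005 RPKM in vehicle to 303 RPKM after 2 h of Dex and 310 RPKM after 4 h. ZNF57, a zinc finger gene, shared the lower level at 4 h, with 2.31, 8.82 and 7.04 RPKM in the same groups. SLC19A2 (43.4 and 32.5 RPKM after 2 h and 4 h of Dex) and CEBPB (233 and 202 RPKM) did so too. KLF9 (9.995 and 10.7 RPKM) did not. For PDP1 the closest profiles were those of HBEGF (r = 0.995), DLC1 (0.994) and STK17B (0.992). HBEGF, a ligand of the EGF receptor, was 64.6 RPKM in vehicle, and 10.7 and 7.47 RPKM after 2 h and 4 h of Dex.

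Around the kinases and phosphatases, 92 genes in 8 lists cover the PDC, its regulators and lipoylation, pyruvate supply, glycolysis, the citric acid cycle, fatty acid oxidation and transcription factors known to act on PDK genes. Of these, 84 passed the filter on low values. With Dex, 6 rose and 3 fell at 2 h, and 11 rose and 14 fell at 4 h. With CpdA, 1 rose at 2 h, and 8 rose and 2 fell at 4 h. The share called was 10.7%, 29.8%, 1.19% and 11.9% of those kept, beside 10.3%, 27.4%, 6.18% and 20.5% of all genes. Their median log2 change was between -0.0023 and 0.055 in the 4 comparisons, and that of all genes between -0.052 and -0.016. The split of the Dex 2 h calls was 5 and 4 after quantile normalization, and that of the Dex 4 h calls was 13 and 10 after median scaling.

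In the complex that the kinases act on, no subunit gene was called with a fold change over 2. Of the 6 PDC subunit genes, all kept, 1 was called after 2 h of Dex (background 10.3%) and 3 after 4 h (background 27.4%). None was called with CpdA (background 6.18% at 2 h and 20.5% at 4 h). PDHX, which encodes the E3-binding protein, was 12.3 and 12.98 RPKM in vehicle and 10.3 and 10.4 RPKM at Dex 4 h, with log2 changes of -0.27 at 2 h and -0.28 at 4 h (limma adjusted p = 0.0054 and 0.0019). DLAT, the E2 acetyltransferase, fell by 0.17 and PDHA1, the E1 alpha subunit that carries the phosphorylated serines, rose by 0.15 at Dex 4 h. Both fell short of the threshold when the 4 samples were fitted alone (adjusted p = 0.18 and 0.21). None of the 3 related regulators (PDPR, BCKDK and PPM1K) and none of the 3 lipoylation genes was called in any treatment.

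Of 17 glycolysis genes kept, 6 fell and 1 rose at Dex 4 h, the comparison in which 27.4% of all genes were called and 2310 of those 3487 genes fell. At Dex 2 h 1 rose, where 10.3% of all genes were called. HK2, a hexokinase of the first step, was 16.3 and 13.2 RPKM in vehicle and 4.95 and 6.43 RPKM at Dex 4 h. Its log2 change was -1.36 (limma adjusted p = 7.0e-05). HK1, another hexokinase gene of the list, was named here after its values were seen. Its mean was 60.1 RPKM in vehicle and 60.4 RPKM at Dex 4 h. PFKFB3 and PFKFB4, which make the activator of phosphofructokinase, changed by -0.92 (adjusted p = 0.00055) and -0.75 (adjusted p = 0.030). PFKFB4 differed between the vehicle samples (10.2 and 5.43 RPKM) more than between vehicle replicate 2 and Dex 4 h (4.41 and 4.34 RPKM). PFKFB3 also differed between the vehicle samples (16.0 and 11.3 RPKM), with 7.18 and 6.96 RPKM at Dex 4 h. PFKFB4 was lower at 4 h than at 2 h with Dex (-1.15, limma adjusted p = 0.0097) and with CpdA (-0.99, adjusted p = 0.020). Dex minus CpdA at 4 h was -0.29 for PFKFB4 (adjusted p = 0.35) and -1.002 for PFKFB3 (adjusted p = 2.6e-04). PFKP, a phosphofructokinase, rose by 0.19 at Dex 2 h (adjusted p = 0.026). Against vehicle, no glycolysis gene was called with CpdA.

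In the citric acid cycle 1 of 16 genes was called at each time with Dex, beside 10.3% and 27.4% of all genes. The gene was OGDH, a subunit of the related 2-oxoglutarate dehydrogenase. It rose by 0.19 at 2 h (limma adjusted p = 0.047) and 0.38 at 4 h (adjusted p = 0.00044). In fatty acid oxidation, 3 of 16 genes were called at Dex 4 h, where 27.4% of all genes were called. CPT1A, which admits fatty acids to mitochondria, rose by 0.29, ETFA rose by 0.16, and CPT2 fell by 0.39 (adjusted p = 0.017, 0.025 and 0.0040). ETFA also rose by 0.14 at CpdA 4 h (adjusted p = 0.046).

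Of 11 genes of pyruvate supply and other fates, 2 fell at Dex 4 h, and 2 rose and 1 fell at CpdA 4 h. Of all genes, 27.4% and 20.5% were called in these comparisons. GPT2, which converts between pyruvate and alanine, was 12.2 and 12.1 RPKM at CpdA 4 h against 7.97 and 8.32 RPKM in vehicle (log2 change 0.57, limma adjusted p = 3.7e-04). At Dex 4 h it changed by -0.19 (adjusted p = 0.047). SLC16A3, the lactate exporter MCT4, fell by 0.32 at CpdA 4 h (adjusted p = 0.0086). The malic enzymes ME2 (-0.18 at Dex 4 h, adjusted p = 0.026) and ME1 (0.17 at CpdA 4 h, adjusted p = 0.031) completed the list, and the Dex calls of GPT2 and ME2 were lost under both rescalings.

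Of 12 transcription factors and coactivators known to act on PDK genes that were kept, 4 rose and 2 fell at Dex 2 h, where 10.3% of all genes were called. At Dex 4 h 6 rose and 3 fell, where 27.4% were called. FOXO1, a forkhead factor known to act on PDK4, was 0.853 and 0.705 RPKM in vehicle, 1.94 and 1.93 RPKM after 2 h of Dex, and 2.53 and 3.10 RPKM after 4 h. Its log2 change was 1.22 at 2 h (limma adjusted p = 2.4e-04) and 1.73 at 4 h (adjusted p = 1.1e-05). It was higher at 4 h than at 2 h of Dex by 0.51 (adjusted p = 0.031), while PDK4 was lower. FOXO3 rose by 1.11 and 1.13 (adjusted p = 2.4e-05 and 9.9e-06), with reads that its near-identical pseudogene copy could share.

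PPARG, a nuclear receptor of fat metabolism, was 12.5 and 12.9 RPKM in vehicle and 25.2 RPKM in both Dex 4 h samples (log2 change 0.98, limma adjusted p = 9.3e-07). PPARGC1A, the coactivator PGC-1 alpha, rose by 0.99 at Dex 2 h from a mean of 0.238 RPKM (adjusted p = 0.011), a call lost without vehicle replicate 2 (0.068). Like PDK4, it passed the filter on low values only through its Dex samples. NR3C1, which encodes GR itself, fell by 0.56 at Dex 2 h and 0.97 at Dex 4 h (adjusted p = 0.0027 and 3.7e-05), named here after its values were seen. With CpdA, 1 of the 12 rose at 2 h (background 6.18%), and 4 rose and 1 fell at 4 h (background 20.5%). MYC rose by 0.68 and 0.38 with CpdA (adjusted p = 0.0010 and 0.0070). With Dex it fell by 0.38 at 2 h (adjusted p = 0.0097) and rose by 0.31 at 4 h (adjusted p = 0.012), where Dex minus CpdA was -0.06 (adjusted p = 0.56). At CpdA 4 h FOXO1 rose by 0.48 (adjusted p = 0.029) and RXRA, the partner of PPAR receptors, fell by 0.35 (adjusted p = 7.2e-04). FOXO3, PPARG and NR3C1 were not called with CpdA.

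**Figure D4:**
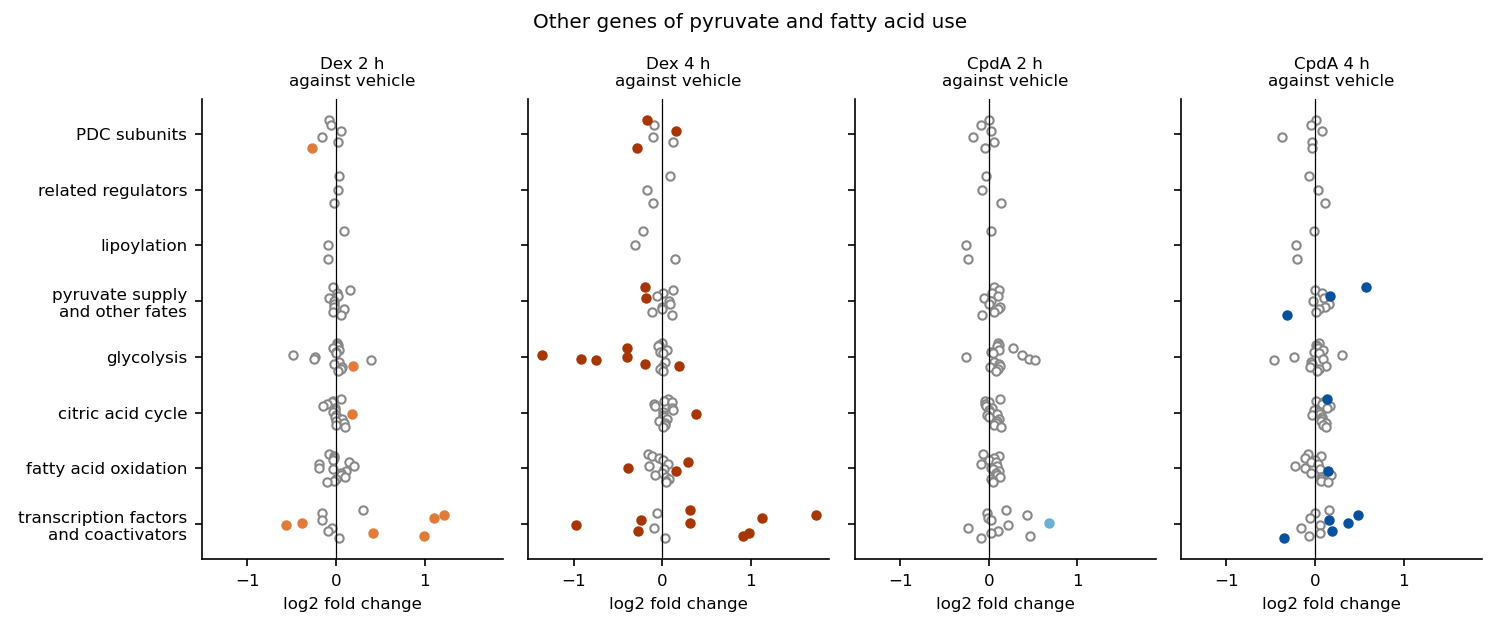
Log2 fold change against vehicle of the 84 listed genes kept, 1 point per gene in 8 lists, filled where the adjusted p-value was under 0.05. Most genes lie near 0, and filled points past 1 on either side are HK2 at Dex 4 h and FOXO1 and FOXO3 at both Dex times.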

How the data were processed

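RNA was measured in 10 of the 22 samples of the series, and the other samples were not used here. The authors aligned single-end reads with TopHat2 (2.0.13 in the submitters' processing notes, which also name hg19) and estimated abundances in Partek (6.6), and the deposited values are RPKM, 1 table per sample. How transcripts were combined into symbols is not given in the sources used here.

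RPKM were transformed to log2(RPKM + 0.1). Genes with at least 0.5 RPKM in at least 2 samples were kept (12713). All 5 groups entered 1 limma fit (version 3.58.1, R 4.3.3, moderated variances with an abundance trend). P-values had a Benjamini-Hochberg correction across every gene kept. Fold changes understate those of low genes. Mapped reads and whole reads (tolerance 0.05 reads) were derived from the step in RPKM, for PDK1, PDK2, PDK4 and PDP2. For PDK3 and PDP1 no transcript length tried gave whole reads within that tolerance, so their reads were not recovered. This derivation, the ratio of kinases to phosphatases and the motif search within 10000 bases were added after seeing the data. Motifs were searched with Python 3.11.15 and pysam 0.24.0 in GRCh37 with GENCODE genes.

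The members and lists were chosen with earlier results of these data known. Named genes were the members, up to 3 called genes with the largest change per list and treatment, and the profiles most like PDK4 (5) and PDP1 (3). The result of 1 gene that this rule names is not reported here.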

Additional observations from a re-analysis of the deposited data

Results flagged for a closer look

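A difference between the ligands that itself differed between the time points was found for PDK4, with an interaction of -0.994 on the log2 scale (limma adjusted p = 0.0080). Differences between the time points of 1 ligand passed the test for PDK4 (-0.867), PDK1 (-0.509) and PDK3 (-0.441) with Dex, and for PDK2 (-0.361) and PDP1 (-0.486) with CpdA. With no vehicle time in the labels, these differences within a ligand include whatever changed between 2 h and 4 h in all cells. In the interaction, a log2 change shared by both ligands cancels. Groups of 2 samples are too small for a check of single samples that stand apart.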

How the results depend on the processing

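The PDK4 and PDP1 calls under Dex kept their direction and stayed called under every alternative in which the gene was tested. Requiring at least 1 RPKM in every sample removed PDK4 and PDK3, leaving 1 member called at Dex 2 h, Dex 4 h, CpdA 4 h, Dex 4 h against Dex 2 h and Dex 4 h against CpdA 4 h. It left 0 at CpdA 2 h and 0 in the interaction. At CpdA 2 h the count of members was 0 with a pseudocount of 1, no filter, unmoderated variances, or only the 4 samples compared. At CpdA 4 h it was 1 with no filter, quantile normalization, median scaling or unmoderated variances, and 0 with only the samples compared. Unmoderated variances left 1 member for Dex 4 h against 2 h, 1 for CpdA 4 h against 2 h and 0 in the interaction. For CpdA 4 h against 2 h no filter left 1, and only the samples compared gave 4, as it gave 2 in the interaction. The cause of these shifts was not tested.

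With 1 sample left out, a fit in which the lone sample is assumed to vary like the other groups, members called ranged from 2 to 3 for Dex 2 h and from 2 to 4 for Dex 4 h. The range was 0 to 3 for CpdA 2 h, 1 to 4 for CpdA 4 h, 1 to 3 for Dex 4 h against 2 h and 0 to 4 for CpdA 4 h against 2 h. It was 2 to 3 for the ligands at 2 h, 2 to 4 at 4 h and 0 to 2 in the interaction. The counts of 4 for Dex 4 h and CpdA 4 h came without vehicle replicate 2, and that of 3 at CpdA 2 h without vehicle replicate 1. Listed genes called ranged from 4 to 12 for Dex 2 h, 19 to 31 for Dex 4 h, 1 to 7 for CpdA 2 h and 3 to 16 for CpdA 4 h. The low of 4 came without Dex 2 h replicate 2, the 7 without Dex 4 h replicate 1 or 2, the 16 without Dex 4 h replicate 1 and the 3 without CpdA 4 h replicate 1 or 2. Only the samples compared gave 10 listed genes for Dex 4 h, and no filter gave 6 for CpdA 4 h.

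Over all genes, leaving out 1 sample moved the calls to between 766 and 1710 for Dex 2 h (1311 with all samples), 2772 and 4772 for Dex 4 h (3487), 216 and 1446 for CpdA 2 h (786), and 1190 and 3637 for CpdA 4 h (2609). The ranges were 592 to 3440 for Dex 4 h against 2 h (1725), 261 to 2500 for CpdA 4 h against 2 h (1577), 959 to 2297 and 2759 to 5183 for the ligands at 2 h (1743) and 4 h (4241), and 293 to 2132 in the interaction (839). Unmoderated variances gave 368 at CpdA 2 h, 993 and 827 between the times of Dex and CpdA, and 423 in the interaction. Only the samples compared gave 1775 for Dex 4 h, 480 for CpdA 2 h, and 696 and 3500 between the times. Median scaling moved the share of calls that rose from 33.8% to 49.9% for Dex 4 h, from 30.5% to 44.6% for CpdA 2 h and from 33.0% to 55.7% for CpdA 4 h.

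Some small changes that were not called turned sign. After quantile normalization and median scaling, PDK1 was 0.020 and 0.00086 at CpdA 4 h, -0.019 and -0.015 between the ligands at 2 h, and PDK2 was 0.0036 and 0.011 at Dex 4 h. With 1 sample left out, PDK1 ranged from -0.22 to 0.093 at CpdA 4 h and -0.080 to 0.088 between the ligands at 2 h, and PDK2 from -0.0035 to 0.16 after 2 h of Dex and -0.14 to 0.022 after 4 h. PDK3 ranged from -0.25 to 0.096 at CpdA 2 h. For CpdA 4 h against 2 h, PDK4 ranged from -0.013 to 0.27 and PDP2 from -0.018 to 0.11, and between the ligands at 4 h PDP2 ranged from -0.077 to 0.22.

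The replicate number as a block changed no call made without it, but PDK1 passed at Dex 4 h (-0.28, adjusted p = 0.023) and for CpdA 4 h against 2 h (-0.29, adjusted p = 0.040), PDP2 passed between the ligands at 2 h (0.35, adjusted p = 0.025), and 2 listed genes passed at CpdA 2 h. The mean correlation of deviations by replicate number was 0.054 over 10 pairs of groups (-0.057 to 0.198), with 3 pairs above 0.1. In vehicle the replicate number also carries the time in the table names. Whether the numbers pair the samples therefore cannot be told from these values. Median scaling gave kinase sums of 86.7 after 2 h of Dex and 54.3 after 4 h, and quantile normalization a PDK4 share of 79.6% at Dex 2 h. Of the 5 profiles most like PDK4, 0 were shared by Spearman rho and 3 with a pseudocount of 1. With 2 samples a group, small changes in the less abundant members could not be resolved.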
